A study of Mus musculus with 15 samples.

Results

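The effect of introduced TM4SF1 on the transcriptome of 4TO7 cells was examined in 6 of the 15 arrays of the series, chosen by their labels: 3 of 4TO7 cells stably transduced with the retroviral vector pBabepuro carrying TM4SF1, and 3 of 4TO7 cells with pBabepuro alone. Both groups are therefore puromycin-vector lines of the same parent. 4TO7 is a mouse mammary carcinoma line derived from the same tumour as 4T1. The other 9 arrays, used here as a second TM4SF1 contrast, held 4T1 cells with the lentiviral hairpin shTM4SF1-1, with the hairpin shTM4SF1-5 (called hairpin 1 and hairpin 5), or with a scrambled hairpin (shscramble), 3 arrays each. The labels call the replicates biological. They do not state whether cultures were grown or transduced separately, or whether a line was a pool or 1 clone. The species of the TM4SF1 sequence is not stated in the labels either. The p-values and standard errors therefore measure the spread between arrays, and that spread was estimated from all 15 in 1 fit.

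TM4SF1 is a small membrane protein of the L6 family. Its relatives the tetraspanins organise receptors and integrins in the plasma membrane. In breast cancer cells it has been described as a partner that couples the collagen receptor DDR1 to the kinase JAK2 and the transcription factor STAT3, and it has been studied for the outgrowth of dormant disseminated cells. 4TO7 is used as a model of such cells because it disseminates but seldom forms overt metastases.

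Between 9848 and 10199 of 25697 probes were detected on a 4TO7 array. The mean signal of an array before normalization was 319, 329 and 253 with TM4SF1, against 391, 364 and 309 with pBabepuro, so the TM4SF1 arrays were dimmer on average and the lines overlapped. After normalization, TM4SF1 arrays correlated with each other across genes at r = 0.990 to 0.992, vector arrays with each other at 0.992 to 0.994, and TM4SF1 with vector arrays at 0.988 to 0.993. Of the 7 luminal epithelial markers on the array, the keratins Krt8 and Krt18 were detected on all 6 arrays. The other 5 (Cdh1, Krt19, Cldn4, Cldn7 and Muc1) were detected on none. Of the 6 mesenchymal markers, Vim and Zeb2 were detected on all 6 arrays, and the other 4 (Cdh2, Zeb1, Twist1 and Prrx1) on none. Of the 7 myoepithelial markers, 6 were detected on no 4TO7 array, and a probe of Acta2 was detected on 2 TM4SF1 and 0 vector arrays. Of the 8 leukocyte markers on the array, 7 were detected on no 4TO7 array, and none of the 8 endothelial, 6 adipocyte or 3 erythroid markers was. The summed normalized intensity of the luminal epithelial markers was 3473 to 3788 with TM4SF1 and 3257 to 3770 with pBabepuro. That of the fibroblast markers, of which 2 of 8 were detected on every array, was 448 to 477 with TM4SF1 and 507 to 526 with pBabepuro; its part in the results below was not tested.

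Tm4sf1 itself was not distinguishable between the lines. Its only probe (ILMN_2462650, chromosome 3) gave normalized log2 intensities of 8.49, 8.26 and 8.36 in 4TO7 with TM4SF1, against 8.64, 7.81 and 8.25 with pBabepuro. The groups overlapped, and the highest of all 6 values was a vector array. The log2 difference, TM4SF1 minus vector, was 0.14 ± 0.19 (SE, n = 3 each; limma adjusted p = 0.933). The 95% interval of the fold, 0.835 to 1.45, does not reach a doubling of signal at this probe. Before normalization the probe read 460, 405 and 315 with TM4SF1, against 610, 365 and 387 with the vector. The difference rested on single arrays: without vector replicate 2 it was -0.08. The same probe was lower in 4T1 by 1.13 with hairpin 1 and by 1.48 with hairpin 5, relative to scramble, on the log2 scale. No source used here says if this probe matches the introduced cDNA, so the probe does not check the label of the TM4SF1 line, and every direction below is that of the line labelled as carrying TM4SF1.

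**Figure D1:**
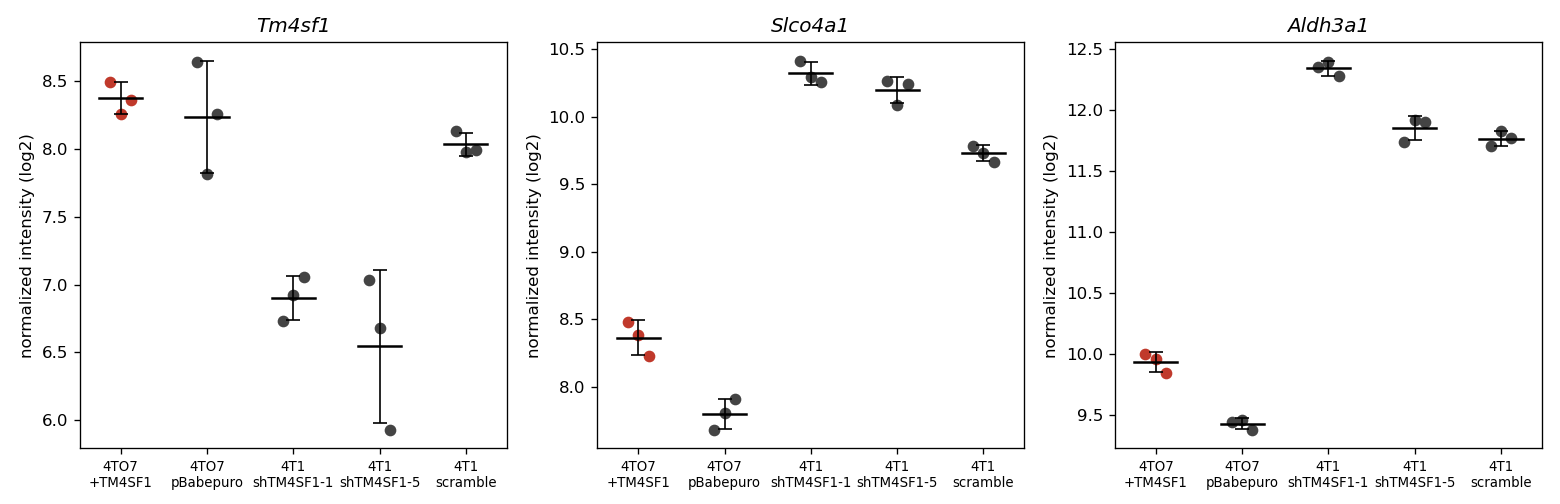
Normalized log2 intensity (vertical axes) of Tm4sf1, Slco4a1 and Aldh3a1 on each of 15 arrays, by group; points are arrays, long bars are group means and whiskers are 1 SD (n = 3). Tm4sf1 overlaps between the 4TO7 lines, while all 3 TM4SF1 arrays lie above all 3 pBabepuro arrays for Slco4a1 and Aldh3a1.

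Across the transcriptome the difference between the 4TO7 lines was small. Of 8228 genes tested, 2 passed an adjusted p of 0.05 (0.0243% of genes), both higher with TM4SF1, and 0 were lower. The lowest adjusted p of a gene with a lower mean was 0.177. At an unadjusted p under 0.05 there were 596 genes (7.24%), 274 higher and 322 lower. The 3 arrays of a line did not overlap those of the other line for 1047 genes (12.7%). For comparison, hairpin 1 called 480 genes (5.83%) and hairpin 5 called 289 (3.51%) in the same fit to 4T1 arrays.

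The sizes of the differences were bounded as well. The middle 95% of log2 differences lay between -0.34 and 0.30, against -0.47 to 0.46 for hairpin 1 and -0.44 to 0.40 for hairpin 5, and the median over all genes was -0.0013. No gene reached a difference of 1, and 57 reached 0.5, of which 18 were higher and 39 lower with TM4SF1. For 8205 genes (99.7%) the 95% interval lay within a log2 difference of 1 either way, and for 6200 (75.4%) it lay within 0.5. Each of these values is on the scale of log2 intensity plus an offset, which understates the change of dim genes. A probe that no array of a line detected has only a bound there, and 19 genes were detected on every array of 1 line and on none of the other, 4 in the TM4SF1 line and 15 in the vector line. None of the 19 was called. The largest bound of the 19 was that of Dhx58, a cytoplasmic sensor of viral RNA related to RIG-I. Its array means differed by at least 1.28-fold, lower with TM4SF1 (limma adjusted p = 0.506). That bound is taken from array means and carries no sampling error.

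**Figure D2:**
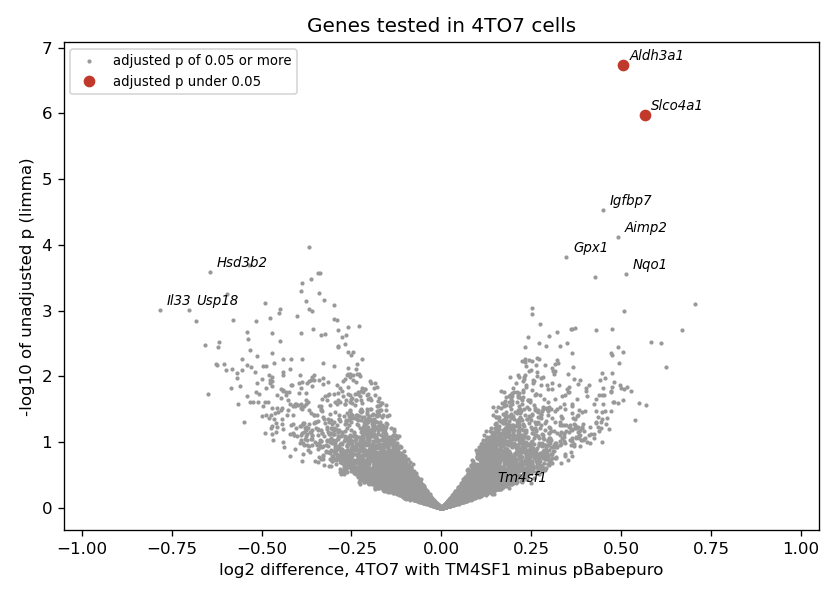
Log2 difference between 4TO7 with TM4SF1 and 4TO7 with pBabepuro (horizontal axis) against -log10 of the unadjusted limma p (vertical axis) for 8228 genes, n = 3 arrays each. Only Aldh3a1 and Slco4a1 (large red points) pass the adjusted threshold, both on the right, and Tm4sf1 lies near the bottom centre.

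Aldh3a1, which encodes a cytosolic aldehyde dehydrogenase that oxidises aromatic and fatty aldehydes, had the lowest p. It read 10.003, 9.96 and 9.84 in 4TO7 with TM4SF1, against 9.45, 9.47 and 9.38 with pBabepuro (probe ILMN_1253178, chromosome 11, its only probe). All TM4SF1 arrays lay above all vector arrays, and the lines were separated by more than the range within either. The log2 difference was 0.50 ± 0.07 (SE, n = 3 each), a fold of 1.42 with a 95% interval of 1.28 to 1.57 and an adjusted p of 0.00149. Before normalization the probe read 1137, 1137 and 761 with TM4SF1, against 990, 952 and 741 with the vector, values that overlap between lines of unequal brightness. With array brightness added as a covariate, the log2 difference was 0.52 (adjusted p = 0.00232). It stayed called when any single 4TO7 array was left out, with differences between 0.47 and 0.55.

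Slco4a1, which encodes an organic anion transporter that carries thyroid hormones among other substrates, was the other called gene. Its values were 8.48, 8.39 and 8.23 with TM4SF1, against 7.68, 7.81 and 7.91 with pBabepuro (probe ILMN_2661340, chromosome 2). The lines did not overlap. The log2 difference was 0.57 ± 0.09 (SE, n = 3 each), a fold of 1.48 with a 95% interval of 1.30 to 1.68 and an adjusted p of 0.00435. The gene's second probe, ILMN_2614548, was detected on no 4TO7 array. Without TM4SF1 replicate 1 the adjusted p was 0.0657, and without vector replicate 1 it was 0.0981.

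Both calls depended on the processing, and the cause was not tested. With the 6 4TO7 arrays normalized, filtered and fitted alone, the log2 differences were 0.49 for Aldh3a1 and 0.56 for Slco4a1. The adjusted p were 0.0982 and 0.152, and without the mean-variance trend both stood at 0.115. With median scaling in place of quantile normalization the log2 differences were 0.43 and 0.44, with adjusted p of 1.00 for both.

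Other members of these families were set beside the called genes; the families were chosen after their values were seen. Of 10 aldehyde dehydrogenase genes tested, 1 was called, Aldh3a1. Aldh4a1, a mitochondrial enzyme of proline catabolism, read 7.19, 7.31 and 7.51 with TM4SF1, against 6.97, 7.17 and 6.77 with the vector (log2 difference 0.37, unadjusted p = 0.0110). Aldh3a2, the fatty aldehyde dehydrogenase of the endoplasmic reticulum and a close relative of Aldh3a1, read 11.43, 11.51 and 11.48 with TM4SF1, against 11.57, 11.63 and 11.77 with the vector (-0.18, unadjusted p = 0.0127). The remaining 7 had unadjusted p above 0.05. Slco2a1, a prostaglandin transporter and the only other organic anion transporter gene tested, had a log2 difference of -0.16 (unadjusted p = 0.0710).

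The genes that followed by p did not pass the adjusted threshold. Among those with a higher mean, Igfbp7, a secreted protein that binds insulin-like growth factors, read 8.91, 8.69 and 8.73 with TM4SF1, against 8.22, 8.37 and 8.39 with the vector. Its log2 difference was 0.45 ± 0.09 (SE; adjusted p = 0.0797), and it was called only with array weights among the alternatives run (adjusted p = 0.0209). Aimp2, a scaffold of the multi-enzyme tRNA synthetase complex, differed by 0.49 (adjusted p = 0.157), although a second detected probe of the gene gave 0.03. Gpx1, the main cytosolic glutathione peroxidase, differed by 0.35, and Nqo1, a quinone reductase, by 0.51 (adjusted p = 0.207 for both). Chst2, which sulfates carbohydrate chains, differed by 0.51, Ostf1 by 0.43, Fbxo4, a substrate receptor of an SCF ubiquitin ligase, by 0.27, and Anxa3, a calcium-dependent phospholipid-binding protein, by 0.25 (adjusted p between 0.211 and 0.334). A second detected probe of Anxa3 gave 0.38. In all 8 the lines did not overlap, as was the case for 6.11% of genes in that direction.

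Of the genes with a lower mean, Lhfpl2 had the lowest p, at a log2 difference of -0.37 (adjusted p = 0.177). Hsd3b2, named for a steroid dehydrogenase, read 9.24, 8.57 and 8.86 with TM4SF1, against 9.54, 9.34 and 9.72 with the vector, a difference of -0.64. Its family has near-identical paralogs that one probe may not tell apart, and the other 5 probes of the gene were detected on no 4TO7 array. The co-chaperone Dnajc7 differed by -0.53, the prefoldin subunit Pfdn2 by -0.34, the ubiquitin ligase Pja2 by -0.36, Isg20l2 by -0.39 and Ssbp3 by -0.34. Second probes detected on all 6 arrays gave -0.16 for Pja2 and -0.04 for Ssbp3. Egln3, a prolyl hydroxylase that marks hypoxia-inducible factors for degradation, differed by -0.34, but a second probe, detected on 3 TM4SF1 and 2 vector arrays, gave 0.31. Adjusted p of these genes lay between 0.177 and 0.267, and in all 8 the lines did not overlap, against 6.61% of genes in that direction.

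The signalling partners described for TM4SF1 and their targets were compared next, since that pathway is where the protein has been placed. Of 17 tested genes in the list of DDR1 and JAK-STAT3 components, which holds Tm4sf1 itself, 0 were called, against 0.0243% of all genes. An unadjusted p under 0.05 was reached by 0, against 7.24% of all genes. Means with TM4SF1 were higher for 4 and lower for 13, and the lower count ran from 10 to 16 over the alternatives run. In 1 gene the TM4SF1 arrays lay wholly below the vector arrays, as in 6.61% of all genes. The median log2 difference was -0.04, against -0.0013 over all genes. Ddr1 read 6.77, 6.98 and 7.29 with TM4SF1, against 7.16, 7.06 and 6.85 with the vector. Jak2 read 8.47, 8.32 and 8.04 with TM4SF1, against 8.21, 8.40 and 8.32 with the vector. Stat3 read 8.86, 9.16 and 8.92 with TM4SF1, against 9.13, 8.93 and 9.08 with the vector. In all 3 genes the lines overlapped, and transcript level says nothing of phosphorylation. The largest difference was that of Tyk2, a Janus kinase, at -0.18 (adjusted p = 0.824).

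Of 18 STAT3 target genes, 0 were called, 9 had a higher and 9 a lower mean with TM4SF1, and the median was -0.0005. The member with the largest difference was Bcl2l1, which encodes the survival factor BCL-XL, at 0.26 (adjusted p = 0.773), with values of 8.31, 8.52 and 7.72 with TM4SF1 against 8.22, 7.94 and 7.63 with the vector. Lcn2 and Mmp9, secreted STAT3 targets that both hairpins lowered in 4T1, differed by -0.03 and 0.04 in 4TO7. Of 11 tested stemness and self-renewal genes, 0 were called and 0 had an unadjusted p under 0.05. Myc had the largest difference there, 0.22, with values of 6.04, 6.30 and 6.08 with TM4SF1 against 6.05, 5.84 and 5.88 with the vector, groups that overlap.

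The interferon response and NRF2 lists had members with individual p under 0.05 in mostly 1 direction, although 0 members of either list were called. Such counts were not particular to these lists. At that p, 33 respiratory chain and ATP synthase genes held 4 with higher and 0 with lower means. The 16 Notch and Wnt genes held 0 with higher and 3 with lower means. Interferons induce antiviral genes in responding cells, and NRF2 is the transcription factor that induces glutathione and detoxification enzymes. Of 17 interferon response genes tested, 16 had a lower and 1 a higher mean with TM4SF1, the median log2 difference was -0.21 and 6 had an unadjusted p under 0.05, all with lower means, against 3.91% of all genes in that direction. The lower count was between 15 and 17 under all alternatives run, including each scaling. In 8 of the 17 the TM4SF1 arrays lay wholly below the vector arrays, as in 6.61% of all genes.

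Usp18, a protease that removes ISG15 from its targets, had the largest difference of the list. It read 6.13, 5.81 and 6.58 with TM4SF1, against 6.70, 6.83 and 7.10 with the vector, a log2 difference of -0.70 ± 0.19 (SE; adjusted p = 0.285). A second detected probe of Usp18 gave -0.54. Isg15, the ubiquitin-like modifier itself, read 7.18, 7.50 and 7.29 with TM4SF1, against 7.72, 7.60 and 8.09 with the vector (-0.48, unadjusted p = 0.00952). Every TM4SF1 array was below every vector array for both genes.

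Bst2, the tetherin that holds budding viruses at the cell surface, read 5.39, 5.30 and 6.16 with TM4SF1, against 6.14, 6.30 and 6.27 with the vector (-0.62), so TM4SF1 replicate 3 lay within the vector range. Gbp3, a guanylate-binding GTPase, read 7.34, 7.30 and 7.21 with TM4SF1, against 7.88, 7.82 and 7.62 with the vector (-0.49). Oasl2, of the oligoadenylate synthetase family, read 7.73, 7.83 and 7.98 with TM4SF1, against 8.30, 8.17 and 8.42 with the vector (-0.45). Irf9, the DNA-binding subunit of the interferon-stimulated complex, read 6.83, 7.23 and 7.28 with TM4SF1, against 7.72, 7.29 and 7.57 with the vector (-0.42). Of these, Gbp3, Oasl2 and Irf9 did not overlap between lines. Bst2, Gbp3, Oasl2, Irf9 and Isg15 were singled out with their values known. Cxcl10, the only member with a higher mean, differed by 0.09.

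The related genes of MHC class I and antigen processing had lower means in 10 of 13, with a median of -0.12, and 0 had an unadjusted p under 0.05. The largest difference was that of Tap2, a subunit of the peptide transporter, at -0.32 (adjusted p = 0.690). Il33, a nuclear cytokine released by damaged cells, had the largest log2 difference of any gene tested, -0.78 ± 0.21 (SE; adjusted p = 0.285). It read 5.23, 5.38 and 4.57 with TM4SF1, detected on 1 of 3 arrays, against 5.89, 5.98 and 5.66 with the vector, detected on all 3. These values lie close to background.

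Of 26 NRF2 and glutathione genes tested, 18 had a higher and 8 a lower mean with TM4SF1, with a median log2 difference of 0.11. With median scaling 11 had a lower mean. An unadjusted p under 0.05 was reached by 3 with higher means (3.33% of all genes in that direction) and by 1 with a lower mean. Nqo1 read 7.63, 7.63 and 7.31 with TM4SF1, against 6.80, 7.08 and 7.15 with the vector. Gpx1 read 11.96, 12.07 and 11.84 with TM4SF1, against 11.68, 11.67 and 11.49 with the vector. Gclm, the modifier subunit of the rate-limiting enzyme of glutathione synthesis, read 8.77, 8.85 and 8.99 with TM4SF1, against 8.76, 8.67 and 8.46 with the vector (0.24, unadjusted p = 0.0292). In these 3 genes the lines did not overlap. Tkt, transketolase of the pentose phosphate pathway, differed by -0.25 (unadjusted p = 0.0372), and Hmox1, the heme oxygenase and a classical target of NRF2, by -0.49 with an unadjusted p of 0.0725, the largest difference of the opposite sign in the list; it was detected on 1 TM4SF1 array and 2 vector arrays.

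**Figure D3:**
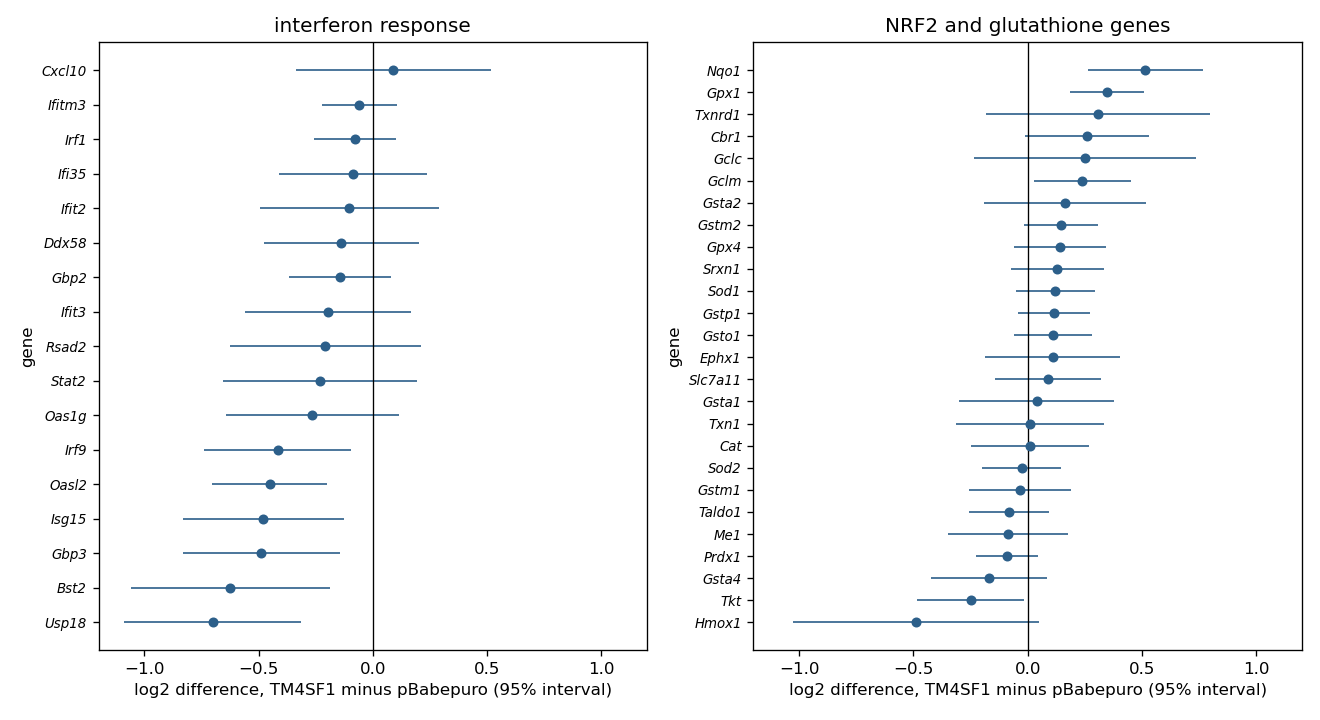
Log2 difference between 4TO7 with TM4SF1 and 4TO7 with pBabepuro (horizontal axes) for each tested gene (rows) of the interferon response list, 17 genes, and the NRF2 and glutathione list, 26 genes; points are estimates and lines 95% intervals from limma, not adjusted for multiple testing. Most interferon genes lie left of 0, with Usp18 lowest at -0.70, and Nqo1 lies farthest right in the other panel at 0.51.

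In the other lists no member was called, and medians stayed within 0.1 of 0. Of 14 tested targets of YAP, TAZ and SRF, 13 had a higher mean with TM4SF1, but the median was 0.07, 1 had an unadjusted p under 0.05 and with median scaling 7 had a lower mean. That member was Ccn1, a matricellular protein, at 0.34 (adjusted p = 0.635), where the lines overlapped. Of 10 integrin subunits, Itgb7, the partner of alpha 4 and alpha E chains, had the largest difference, 0.43 ± 0.13 (SE; adjusted p = 0.334), with values of 6.41, 6.54 and 6.64 with TM4SF1 against 5.87, 6.21 and 6.22 with the vector. Among 13 L6 and tetraspanin family genes the largest difference was that of Tm4sf1 itself.

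The lists on cell identity and growth held differences of the same order. Snai1, a repressor of epithelial genes, differed by -0.24 (adjusted p = 0.739), and the keratin Krt7 was detected on no 4TO7 array. Mcm3, a subunit of the replicative helicase, differed by 0.33 (adjusted p = 0.554) and had the largest difference of 26 replication and mitosis genes, whose median was 0.05. The death receptor gene Tnfrsf10b, a p53 target, differed by 0.50 (adjusted p = 0.506). However, 3 other probes of the gene, each detected on all 6 arrays, gave -0.18, 0.01 and 0.10. The remaining probe was detected on no 4TO7 array. Hes1, a Notch target, differed by -0.36 (adjusted p = 0.650), the BMP and activin antagonist Fst by -0.30 (adjusted p = 0.793), and the immediate early gene Fosb by -0.46 (adjusted p = 0.722). Fst and Fosb were each detected on 1 TM4SF1 array and on 3 vector arrays.

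Metabolic, stress and matrix genes were likewise below the threshold. Pdia4, a disulfide isomerase of the endoplasmic reticulum, read 10.41, 10.51 and 9.90 with TM4SF1, against 10.68, 10.61 and 10.62 with the vector (-0.36, adjusted p = 0.541). The lysosomal protease Ctsd differed by 0.43 (adjusted p = 0.595) and was detected on 3 TM4SF1 arrays and on 2 vector arrays. The small heat shock protein Cryab differed by 0.36 (adjusted p = 0.706), and Sdhd, a subunit of succinate dehydrogenase, by 0.30 (adjusted p = 0.745). Fasn, the fatty acid synthase, differed by -0.65 (adjusted p = 0.571) and was detected on 1 TM4SF1 array and on 3 vector arrays. The matrix glycoprotein Tnc differed by -0.28 (adjusted p = 0.807) and was detected on 2 TM4SF1 arrays and on 3 vector arrays. The secreted inhibitor of angiogenesis Serpinf1 differed by -0.27 (adjusted p = 0.785).

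The 4TO7 comparison was then set beside the knockdown of Tm4sf1 in 4T1, which shares no array with it but was normalized with it and shares its estimate of the spread. A set of 143 genes, including Tm4sf1, passed in 1 direction with each hairpin, 64 higher and 79 lower than scramble. In 4TO7 with TM4SF1, 0 of them were called the opposite way. Over all genes tested, 49.7% had a higher mean with TM4SF1. By sign alone, 100 of the 143 had a 4TO7 difference in the same direction as the knockdown: 47 of the 64 genes raised by the hairpins and 53 of the 79 lowered ones. With median scaling these counts were 35 of 64 and 63 of 79. The differences were small, with medians of 0.08 and -0.06. At an unadjusted p under 0.05, 3.33% of all genes had a higher and 3.91% a lower mean with TM4SF1. The raised genes held 10 with a higher and 2 with a lower mean, and the lowered genes held 8 with a lower and 2 with a higher mean. Genes are not independent replicates, and no test was made of these counts.

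Slco4a1 was the 1 gene called alike in all 3 contrasts. It was higher with TM4SF1 in 4TO7 and also higher with hairpin 1 (0.59, adjusted p = 9.31e-05) and hairpin 5 (0.47, adjusted p = 0.00226) than with scramble in 4T1, where scramble averaged 9.73 ± 0.06 (SD, n = 3). Aldh3a1 was higher with hairpin 1 (0.57, adjusted p = 7.45e-06), while its difference with hairpin 5 was 0.09 (adjusted p = 0.601). Nqo1 was higher with hairpin 1 (0.60, adjusted p = 0.00290), and Gclm with both hairpins (0.95 and 0.62). Other genes called alike with both hairpins whose 4TO7 difference had the same sign were Rap2b, a small GTPase (0.39 in 4TO7), the ubiquitin ligase gene Rnf145 (-0.38) and Gadd45a, a DNA damage response gene (-0.34). Vti1b, a SNARE protein of endosomes, had a difference of -0.29 in 4TO7 and was higher with both hairpins. These 4 genes were singled out after their values were seen, and none was called in 4TO7.

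**Figure D4:**
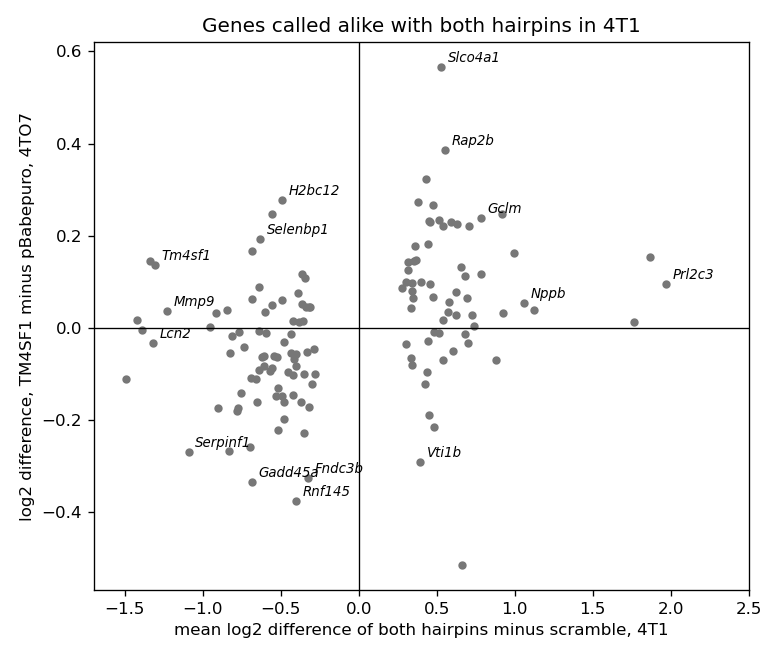
Mean log2 difference of both hairpins minus scramble in 4T1 (horizontal axis) against the log2 difference of TM4SF1 minus pBabepuro in 4TO7 (vertical axis) for 143 genes that passed in 1 direction with each hairpin, each point a gene. Of the genes on the right 47 of 64 lie above 0, and of those on the left 53 of 79 lie below it. The genes were chosen for their 4T1 differences, so nothing is read from the wider horizontal spread.

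Genes that led the knockdown were then looked up in 4TO7. They were listed for their 4T1 differences, so nothing is read from smaller differences in 4TO7. Of 17 such genes tested, 0 were called in 4TO7, and the differences lay between -0.27 and 0.25. The median was 0.02, but the hairpins raised 8 and lowered 9 of these genes, so opposite differences can cancel in it. The lines did not overlap for 3 genes with a higher and 2 with a lower mean, against 6.11% and 6.61% of all genes. The prolactin family member Prl2c3 differed by 0.10 and the natriuretic peptide gene Nppb by 0.05, while Plvap, a protein of endothelial diaphragms, was detected on no 4TO7 array. The difference between the lines was tested directly for each gene as the TM4SF1-minus-vector difference in 4TO7 minus the scramble-minus-hairpins difference in 4T1, which is 0 for a gene that moves in mirror image. This passed an adjusted p of 0.05 for 240 genes (2.92%), 111 higher and 129 lower, of which 190 were also called with a hairpin. Of the 143 genes called alike with both hairpins, 99 (69.2%) were among them, a share from which nothing is read, since those genes were chosen for the 4T1 differences that this test contains. The count rested on single libraries: it was 140 without TM4SF1 replicate 2, 148 and 149 without vector replicates 1 and 3, and 140 and 136 without scramble replicates 1 and 3.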

How the data were processed

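Total RNA of 15 cell line samples was measured on Illumina mouse BeadChips, 3 arrays in each of 5 groups, grouped by GEO's labels. The deposited matrix held linear, unnormalized bead intensity and a detection p-value for every probe, per the file headers. The authors' deposited value table, a linear intensity judged from its values to be background-subtracted and quantile normalized, was an alternative. GenomeStudio is named, with no version, in the submitters' processing notes.

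Intensities were background-corrected with limma's normexp (negative controls inferred from detection p-values, offset 16), quantile normalized and log2 transformed. The filter kept 11109 probes whose detection p was under 0.01 on 3 or more arrays, and each symbol was represented by its brightest probe (8228 genes, of which 7576 were named). Symbols came from the platform annotation: 23978 probes had 1 symbol, 0 several and 1719 none, and 23962 matched RefSeq's gene table. A group-means model with a mean-variance trend was fitted in limma 3.58.1 (R 4.3.3) to all 15 arrays (10 residual degrees of freedom), and p-values were adjusted by Benjamini-Hochberg over all genes tested. Genes under 0.05 were called. The number of arrays limits the precision (median SE 0.13), and an exact permutation of 3 against 3 cannot go below 0.1.

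Members and gene lists were chosen with earlier results of these data known. Lists are described by counts and medians, with values of some members. Named genes were Tm4sf1, all called genes whose lines did not overlap, 8 more of lowest p in each direction, and in each list the member of largest difference. Other genes given with values, such as Isg15, Gbp3, Gclm, Hmox1 and Aldh4a1, lie outside that rule. Their values were known when they were picked. Alternatives were other background, scaling, detection, probe, spread and array choices. Recomputing list signs and the genes shared with the hairpins under them was chosen after seeing the data.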

Additional observations from a re-analysis of the deposited data

Results flagged for a closer look

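For 16 named genes the TM4SF1-minus-vector difference in 4TO7 differed from the scramble-minus-hairpins difference in 4T1, by a limma test of that difference with adjusted p under 0.05. Over all genes tested, 240 (2.92%) passed. Named genes were mostly chosen by their 4TO7 difference, which this test contains, so nothing is read from their count. The values below are on the log2 scale, 4TO7 difference minus 4T1 difference. Tm4sf1 stood at -1.17 (adjusted p = 0.0106): the 4T1 difference was larger.

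Among genes with a higher mean with TM4SF1, Slco4a1 stood at 1.09 (adjusted p = 1.65e-06), Nqo1 at 0.97, the integrin subunit gene Itgb7 at 0.95, Aldh3a1 at 0.84 (adjusted p = 3.75e-06), Ostf1 at 0.65, Igfbp7 at 0.54 and Anxa3 at 0.34. Each of these also had a higher mean with both hairpins than with scramble.

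Among genes with a lower mean with TM4SF1, Serpinf1 stood at -1.36, Usp18 at -1.32, Il33 at -1.22, Hsd3b2 at -0.93, Pdia4 at -0.67, Ssbp3 at -0.44, Pfdn2 at -0.42 and Egln3 at -0.42. Of these, Serpinf1, Usp18, Il33, Hsd3b2, Pdia4 and Ssbp3 also had lower means with both hairpins. Usp18 was called lower with hairpin 1 (-0.97, adjusted p = 0.00191), and its value with hairpin 5 was -0.27 (adjusted p = 0.529). On the hairpin 1 arrays its detection p was 0.143, 0.549 and 0.754, above the 0.01 limit. The -0.97 is therefore only a bound. Il33 was above 0.01 on every hairpin array, and on scramble had 0.0163, 0.00752 and 0.0238. Serpinf1 had 0.0363 on a hairpin 1 array, and 0.144 and 0.0125 on hairpin 5 arrays. Background limits the sizes for these genes, while Hsd3b2 was detected on every array.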

How the results depend on the processing

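Over 21 alternatives the 4TO7 comparison called between 0 and 3 genes. The count was 0 with median scaling, with the 6 4TO7 arrays alone and without the mean-variance trend (the cause was not tested; fewer arrays give fewer degrees of freedom in the second). It lay between 1 and 3 when 1 array was left out, being 1 without TM4SF1 replicate 1 or vector replicate 1, where Slco4a1 was lost, and 3 without TM4SF1 replicate 3, where Tatdn2 was added. With array weights it was 3. Tm4sf1 reversed to -0.075 without vector replicate 2 and ranged from -0.075 to 0.34 over arrays left out. Median scaling moved the median of all genes to -0.09 and the genes at an unadjusted p under 0.05 to 13 higher and 209 lower, against 274 and 322. The 240 genes that differed between 4TO7 and 4T1 became 26 with median scaling, 118 without the detection filter, 156 without the hairpin 1 arrays, 70 without the dimmest array of each group, 324 without the hairpin 5 arrays, 354 with array weights, 283 without background correction, and 136 to 287 with 1 array left out. The cause was not tested. The 100 genes with the direction of the knockdown were 97 to 101 in total throughout, but with median scaling 35 were genes raised by the hairpins and 63 lowered ones, against 47 and 53. Deviations of same-numbered arrays of the 4TO7 lines correlated at r = 0.06, -0.06 and -0.10, and those of differently numbered arrays at -0.13 to 0.17. With 3 arrays per line, each set against its own mean, these values cannot show whether the numbers pair the arrays. With the replicate block 2 genes were called, the same as without it (Slco4a1 0.57, Aldh3a1 0.50), and 214 genes differed between 4TO7 and 4T1. Called list members stayed at 0 in all 525 list settings. Of 830 settings of single named genes other than Tm4sf1, 0 reversed, 8 lost a call (Slco4a1 in 5, Aldh3a1 in 3) and 1 gained one (Igfbp7).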
